A study of Mus musculus with 217 samples.

Results

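The 22 libraries described here are those of the dorsomedial striatum (DMS) taken on either side of lights off, 11 at ZT14 and 11 at ZT10, out of 70 DMS libraries and 217 libraries in the series. Zeitgeber time (ZT) counts hours from lights on, and lights went off at ZT12, so the earlier time lies 2 h before the dark phase and the later one 2 h into it. The members were chosen by region and time alone, and all 12101 genes of the DMS table were tested. Every mouse was a C57BL/6J, a standard inbred strain, of about 10 weeks, kept in 12 h of light and 12 h of dark. The ZT14 group held 5 females (F25, F41, F42, F43 and F44) and 6 males (M21, M22, M23, M24, M25 and M42), and the ZT10 group 5 females (F18, F37, F38, F39 and F40) and 6 males (M16, M17, M18, M37, M38 and M40). Each library came from bulk RNA of bilateral 1 mm punches of 1 animal, so fewer cells of a type and less RNA per cell cannot be told apart.

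The DMS is the part of the dorsal striatum that serves goal-directed action. Most of its neurons are GABAergic medium spiny neurons, which receive glutamate from cortex and thalamus and dopamine from the midbrain. Mice are active in the dark, so lights off is the start of their active phase, with more movement and feeding, a rising body temperature and high corticosterone. Synaptic activity reaches the nucleus within minutes and switches on immediate early genes, which encode transcription factors such as those of the FOS, EGR and NR4A families and effectors such as ARC. The circadian clock runs in striatal cells as well: CLOCK and BMAL1 (the product of Arntl) drive the Per, Cry and Nr1d genes through E-box elements, and PER and CRY proteins repress that drive.

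The values are the authors' DESeq2-normalised counts as log2(count + 1), and a level below is in that unit. The share of normalised counts held by the mitochondrial rRNA genes mt-Rnr1 and mt-Rnr2 fell into separate ranges, 35.3 to 52.6% in 14 libraries (the high class) and 24.8 to 29.9% in 8 (the low class). Each time held 7 high-class and 4 low-class libraries. Animal numbers were less even: all low-class libraries came from animals numbered below 31, but so did high-class M24 and M25 at ZT14. Every other high-class library came from an animal with a higher number. The share ran from 24.8 over a median of 39.8 to 52.6% at ZT14 and from 25.4 over 35.9 to 47.9% at ZT10 (SD 9.19 at ZT14 and 7.88 at ZT10, n = 11 each), a difference in means of 2.70 percentage points that did not pass a two-sided permutation test (p = 0.461). Reads in listed genes came to between 36652198 and 47753048 per library at ZT14 and between 37285334 and 57468484 at ZT10. Medium spiny neuron genes summed to between 303756 and 381969 normalised counts at ZT14 and to between 311736 and 402544 at ZT10, whereas the 3 measured cortical pyramidal markers summed to between 330.0 and 8261 at ZT14 and to between 403.6 and 2719 at ZT10.

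1 library went against its time label at many of the called genes, but not at every one. In the DMS library of female F25, labelled ZT14, Per2 was at 10.28. That was below the 11.13 to 11.46 of the other 3 low-class ZT14 libraries, all male, and within the 10.13 to 10.36 of the 3 low-class male ZT10 libraries. Its Nr1d1 (11.49), Srsf5 (11.64), Hspa5 (12.55) and Cry1 (10.00) also lay within the ranges of those ZT10 libraries and outside those of the other low-class ZT14 libraries. By contrast, its Tsc22d3 (10.38) and Nr4a3 (10.76) lay within the low-class ZT14 ranges of 10.25 to 10.47 and 10.70 to 11.45, and its Nr4a1 (11.35) and Fosl2 (10.16) lay between the ranges of both times. Of the 75 called genes named by the rule given under processing, 63 separated the other low-class ZT14 libraries from the low-class male ZT10 libraries. Of all 12101 genes 2145 (17.7%) separated them, and the 75 were called from a fit that held these libraries. Among the 63, F25 lay within the ZT14 range in 10, within the ZT10 range in 34 and in neither in 19. The library labelled F25 ZT14 of the dorsolateral striatum (DLS), from the same animal, had Nr1d1 at 10.97, within the 10.18 to 11.03 of the other 11 DLS libraries of ZT14, and Per2 at 11.17, above their 9.93 to 10.83 and farther still from the 9.12 to 10.00 of the 11 DLS libraries of ZT10. Female F18 at ZT10 was intermediate: its Per2 (10.68) lay above the other low-class ZT10 libraries and below the 3 low-class male ZT14 libraries, while its Nr1d1 (11.59) lay within the ZT10 range. F25 and F18 are the only low-class females, 1 at each time, so in these comparisons within the low class sex and animal cannot be told apart. Neither was left out of the main values, and counts without them are given beside those with them.

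At ZT14, compared with ZT10, 510 of the 12101 genes passed the test (4.21%), 303 higher (2.5%) and 207 lower (1.71%). The fit was limma with sex and library class as terms, and genes were called at an adjusted p below 0.05. Changes were small: the median called gene moved by 0.28 on the log2 scale in either direction, 1.21-fold. 5 genes rose more than 2-fold, Nr4a1, Egr2, Nr4a3, Arc and Fosl2, and none fell by as much. All 5 are immediate early genes. For no gene did the 11 libraries of ZT14 stand clear of all 11 of ZT10 (0 of 12101, 0%), but within the high class 137 genes (1.13%) had 7 ZT14 libraries that did not overlap the 7 of ZT10. Within the low class, with 4 libraries of each time, 574 genes (4.74%) did not overlap. Fewer libraries separate more easily by chance, so the shares of the 2 classes cannot be compared. Among the 510 called genes were 111 of the 137 and 96 of the 574.

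Without F25 613 genes were called (5.07%, with 367 or 3.03% higher and 246 or 2.03% lower), and without both F25 and F18 578 were (4.78%, with 348 or 2.88% higher and 230 or 1.9% lower), of which 455 were among the 510. The class term mattered: without it 107 genes were called (0.884%, with 80 or 0.661% higher and 27 or 0.223% lower), all of them among the 510. Leaving out male M38 at ZT10 gave 311 calls, the fewest of any single library. Without both M24 and M25 at ZT14 282 genes were called, of which 253 were among the 510. With each library scaled to the same sum over all genes, which moved the median log2 difference of all genes from near 0 to -0.09, 172 genes were called, 31 higher and 141 lower. All 510 genes kept the sign of their difference, which that shift could hardly change, since the smallest called difference was 0.12.

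**Figure D1:**
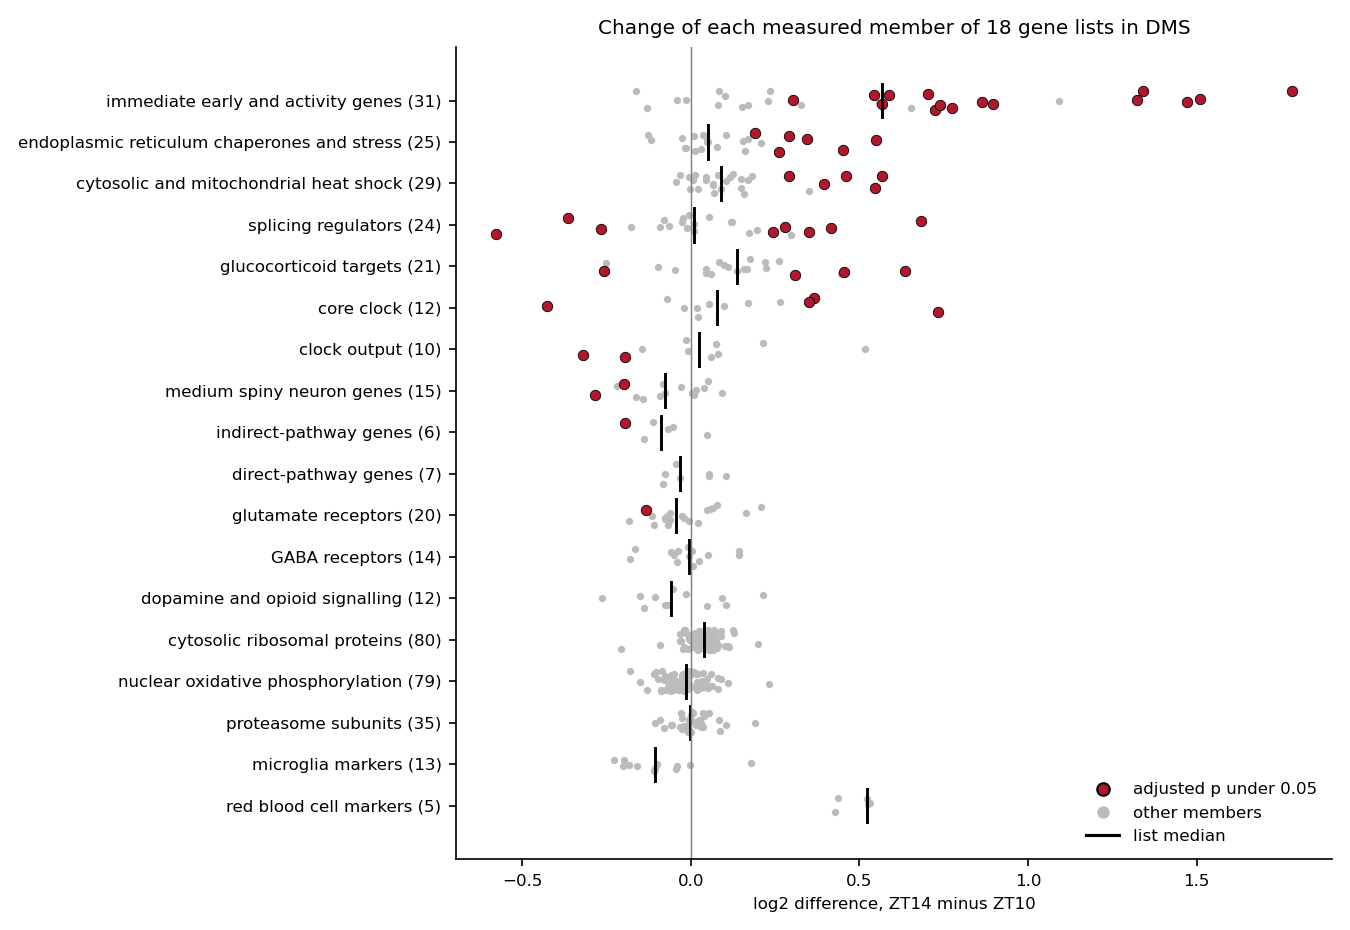
Log2 difference, ZT14 minus ZT10, for every measured member of 18 gene lists in DMS, 1 point per gene (number measured in brackets); red points passed an adjusted p below 0.05, grey points did not, and the black line is the list's median. The immediate early list lies farthest to the right among lists with a called member, with 15 of 31 called and a median of 0.57, whereas no ribosomal, oxidative phosphorylation or proteasome gene was called.

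Immediate early and activity genes rose in 15 of 31 measured (48.4%, against 2.5% of all genes called higher), and the other 16 did not pass. None was called lower at ZT14, although 4 had a negative difference. The median log2 difference was 0.57 against 0.00 over all genes. Without F25 and F18 18 were higher. Without the class term 8 were, and under equal sums 9.

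Nr4a1, an orphan nuclear receptor induced by neuronal activity (chr15:101254269-101274795 in GRCm38), ranged from 11.03 over a median of 11.58 to 12.48 at ZT14, against 8.29, 9.83 and 11.38 at ZT10. All but F18 (11.38) and male M17 (11.06) at ZT10 lay below every ZT14 library. The rise was 3.44-fold (log2 difference 1.78 ± 0.26 SE, adjusted p = 0.000307). Arc, whose product sits at the postsynapse and helps remove AMPA receptors (chr15:74669083-74672570), lay between 11.89 and 14.01 with a median of 12.51 at ZT14, and between 10.25 and 12.91 with a median of 11.28 at ZT10. It rose 2.53-fold (1.34 ± 0.22, adjusted p = 0.000972). In the high class alone neither gene overlapped: Nr4a1 was at 11.03 to 12.39 in 7 libraries at ZT14 and at 8.29 to 10.33 in 7 at ZT10, and Arc at 11.89 to 13.05 against 10.25 to 11.49. In the low class F25 (12.51 in Arc) lay below F18 (12.61) and males M17 and M18 (12.91 and 12.70).

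Fosl2, an AP-1 subunit (chr5:32135801-32157842), was at 9.12 to 11.04 (median 10.16) at ZT14 and at 7.78 to 9.87 (median 8.84) at ZT10. It rose 2.50-fold (1.32 ± 0.17, adjusted p = 0.000204), with the smallest p of the list. The zinc-finger factor Egr2 rose 2.85-fold and the nuclear receptor Nr4a3 2.77-fold, and their libraries overlapped widely: Egr2 lay between 7.98 and 10.98 at ZT14 and between 6.02 and 9.29 at ZT10. Egr4 (1.86-fold), Junb (1.82-fold), Egr1 (1.65-fold) and Jun (1.23-fold) also rose.

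Some feedback inhibitors of the growth factor and MAP kinase pathway were among the genes that rose. Dusp4, of the same list, was not called over both sexes (log2 difference 1.17 in males alone and -0.12 in females alone). Dusp6 and Dusp5, phosphatases of ERK, were higher by 1.71-fold (adjusted p = 0.00083) and 1.63-fold (0.0041), Dusp1 by 0.59 on the log2 scale (0.018) and Spry4 by 1.46-fold (0.015). Klf2 rose 1.48-fold. Btg2, an antiproliferative factor, rose 1.67-fold (adjusted p = 0.029), a call lost without male M38 at ZT10 (0.061).

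Not every classical member passed. Fos differed by 1.09 (adjusted p = 0.057) and Fosb by 0.65 (0.075). Npas4, a factor induced by calcium entry, differed by -0.16 (0.86), Egr3 by -0.01 (0.93) and Gadd45b by -0.13 (0.71). Homer1, whose short form is activity-induced, differed by 0.15 (0.115).

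**Figure D2:**
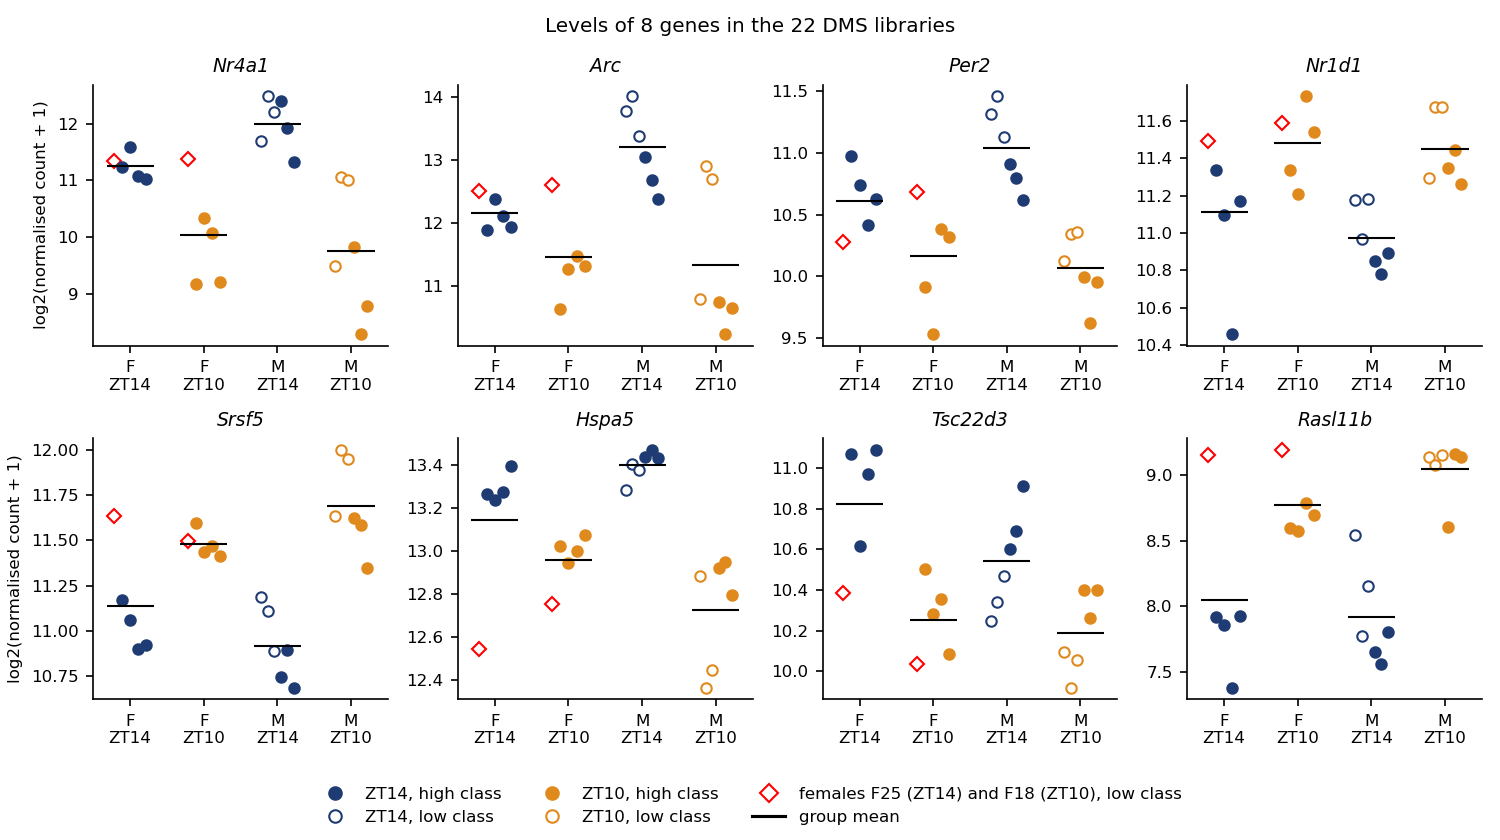
Level of 8 genes, as log2(normalised count + 1), in each of the 22 DMS libraries, by sex (F female, M male) with ZT14 left of ZT10; filled points are high-class and open points low-class libraries, red diamonds are females F25 and F18, and lines are group means. Per2 in F25 (10.28) lies below all 10 other ZT14 libraries, and Rasl11b in F25 (9.15) lies among the ZT10 libraries.

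Chaperones of the cytosol and of the endoplasmic reticulum (ER) were higher at ZT14 in part, and none was called lower. Of 29 measured heat shock genes 5 rose (Chordc1, Dnajb1, Dnajb4, Dnajb5 and Ahsa2), and of 25 ER chaperone and stress genes 6 did (Hspa5, Manf, Xbp1, Sdf2l1, Herpud1 and Pdia4). Those were 17.2% and 24% of the lists, against 2.5% of all genes called higher. The list medians were 0.09 and 0.05, and under equal sums 0.00 and -0.03, so that the ER median changed sign. Under equal sums 2 heat shock genes (Chordc1 and Dnajb1) and none of the 25 ER genes were called, with adjusted p values of 0.082 for Hspa5 and 0.126 for Manf. Without F25 and F18 5 and 7 were higher, and without the class term 2 and 2.

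Chordc1, a co-chaperone of HSP90 (chr9:18292125-18317442), was at 9.95 to 10.78 (median 10.45) at ZT14 and at 9.65 to 10.29 (median 10.06) at ZT10. F25 was the lowest ZT14 library, and the other 4 ZT14 females lay between 10.36 and 10.46. Chordc1 rose 1.38-fold (0.46 ± 0.06, adjusted p = 0.000225). Its promoter is shown because, of 13 called genes of the clock, clock output, cold-inducible, heat shock and glucocorticoid lists with a promoter in the RefSeq table (16 were called), it is 1 of 3 that held a searched motif. The capitals mark GAANNTTC, a core of the heat shock element, in 2 separate copies, the first starting 4 bases before the transcript start and the second 6 bases after it. The stretch is RefSeq's 300 bases on the plus strand, chr9:18292017-18292316 in GRCm38.p6, 250 before the transcript start and 50 after it.
Chordc1: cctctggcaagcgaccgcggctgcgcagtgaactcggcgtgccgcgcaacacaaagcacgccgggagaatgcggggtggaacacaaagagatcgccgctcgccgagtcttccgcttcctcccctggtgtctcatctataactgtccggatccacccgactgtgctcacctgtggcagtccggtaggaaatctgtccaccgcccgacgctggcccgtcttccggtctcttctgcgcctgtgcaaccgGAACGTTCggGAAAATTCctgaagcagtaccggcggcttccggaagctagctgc
GAANNTTC, which reads the same on both strands, was in 5.50% of 11985 promoters of genes measured in DMS and in 7.86% of all 32851 of the table. Of the 21 promoters of the 13 genes it was in 1. A match describes these letters and is not a binding site.

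Dnajb1, the J-domain partner of HSP70, ranged from 9.89 to 10.73 at ZT14 (median 10.50) and from 9.58 to 10.28 at ZT10 (median 9.83), a rise of 1.48-fold (0.57 ± 0.09, adjusted p = 0.000558). The related Dnajb5 and Dnajb4 rose 1.32-fold and 1.22-fold, and Ahsa2, a relative of an HSP90 activator, rose 1.46-fold. The chaperones they serve did not pass: Hspa8 differed by 0.17 (adjusted p = 0.068), Hsph1 by 0.12 (0.39), Hsp90aa1 by 0.01 (0.94) and Hsp90ab1 by -0.03 (0.77). Hsf1, the factor that drives the heat shock response, differed by 0.18 (0.23).

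Hspa5, which encodes the ER chaperone BiP (chr2:34771970-34777547), was at 12.55 to 13.47 (median 13.38) at ZT14 and at 12.37 to 13.07 (median 12.92) at ZT10. F25 held the lowest ZT14 level, and the other 10 ZT14 libraries lay above every ZT10 library. The gene rose 1.37-fold (0.45 ± 0.08, adjusted p = 0.00169), and 0.52 without F25 and F18. Sdf2l1, an ER co-factor of chaperones, rose 1.46-fold, Manf, a secreted ER stress protein, 1.27-fold, Xbp1, a transcription factor of the unfolded protein response, 1.22-fold, and the disulphide isomerase Pdia4 1.20-fold. Other main ER chaperones did not pass, among them Hsp90b1 (0.01), Calr (0.04) and Canx (0.01), with adjusted p values from 0.81 to 0.91. Ddit3, which encodes the stress factor CHOP, differed by -0.12 (0.34).

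Regulators of splicing moved in both directions. Of 24 measured, 5 rose (Clk1, Tra2a, Srsf10, Srsf7 and Srsf1) and 3 fell, among them Srsf5 and Hnrnpdl, with a median of 0.01. The called share was 33.3%, against 4.21% of all genes. Under equal sums 2 rose and 2 fell. Srsf5, an SR protein that binds exonic enhancers (chr12:80945504-80950507), had the smallest p of all 12101 genes. It was at 10.69 to 11.64 (median 10.92) at ZT14 and at 11.35 to 12.00 (median 11.59) at ZT10. The highest ZT14 library was F25, and the other 10 lay below all 11 ZT10 libraries. Srsf5 was 1.49-fold lower (-0.58 ± 0.07, adjusted p = 0.000204). Hnrnpdl, an RNA-binding protein that regulates its own splicing, was at 11.41 to 11.92 (median 11.52) at ZT14 and at 11.79 to 12.14 (median 11.90) at ZT10, 1.29-fold lower (-0.36 ± 0.05, adjusted p = 0.000204).

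Among the splicing genes that rose, Clk1, a kinase that phosphorylates SR proteins, was 1.60-fold higher (0.68 ± 0.14, adjusted p = 0.00696), with ZT14 libraries at 9.85 to 10.71 and ZT10 libraries at 8.74 to 10.65. Tra2a rose 1.33-fold and Srsf10 1.28-fold. Rsrp1, an arginine and serine rich protein outside the list, rose 1.73-fold (0.79 ± 0.13, adjusted p = 0.000926). These are summed gene counts, so retained introns and isoforms are not separated.

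Clock genes changed in a few of their members. In the core clock list of 12, Per2, Cry1 and Per1 were higher at ZT14 and Nr1d1 was lower (33.3% called, against 4.21% of all genes). Per2, a repressor of the clock (chr1:91415982-91459324), lay between 10.28 and 11.46 (median 10.80) at ZT14 and between 9.53 and 10.68 (median 10.13) at ZT10. Apart from F25 and F18, all ZT14 libraries stood above all ZT10 libraries. Per2 rose 1.66-fold (0.73 ± 0.12, adjusted p = 0.000926), and 0.85 without those females. Cry1, the partner of PER, was at 10.00 to 10.94 (median 10.79) at ZT14 and at 9.90 to 10.61 (median 10.35) at ZT10, 1.29-fold higher (0.36 ± 0.07, adjusted p = 0.00579). Per1, which also answers to light and activity signals, rose 1.28-fold (0.35 ± 0.08, adjusted p = 0.012).

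Nr1d1, which encodes the repressor REV-ERBα (chr11:98767932-98775333), was at 10.46 to 11.49 (median 11.10) at ZT14 and at 11.21 to 11.73 (median 11.45) at ZT10. F43 held the lowest level and F25 the highest at ZT14. Nr1d1 was 1.34-fold lower (-0.43 ± 0.08, adjusted p = 0.00411). Arntl differed by 0.27 (adjusted p = 0.055) and passed without F25 and F18 (0.017), which left 5 of the 12 genes called, 4 higher and 1 lower. The remaining 7 differed by between -0.07 (Npas2) and 0.17 (Per3) and did not pass. Under equal sums 1 was higher and 1 lower. Without the class term Per2 and Nr1d1 kept their calls, and Cry1 (adjusted p = 0.099) and Per1 (0.115) did not.

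Of 10 clock output genes 2 fell (20%, against 1.71% of all genes called lower). Usp2, a deubiquitinase under clock control, was 1.25-fold lower (-0.32 ± 0.06, adjusted p = 0.00411), with ZT14 libraries at 10.17 to 11.10 and ZT10 libraries at 10.76 to 11.39. Dbp, an activator that binds D-box elements, was 1.15-fold lower (-0.20 ± 0.05, adjusted p = 0.0404), a call lost without M38 (0.078). Nfil3, which represses at the same elements, differed by 0.52 (adjusted p = 0.061). Cirbp, an RNA-binding protein induced by cooling, was 1.22-fold lower (-0.28 ± 0.07, adjusted p = 0.0266), a call also lost without M38 (0.055), while the other cold-inducible gene, Rbm3, differed by 0.08 (0.69).

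The promoters of Cry1 and Per1 are shown because theirs are the only searched promoters of called clock genes that held CACGTG, the canonical E-box, set in capitals. That of Cry1 is on the minus strand at chr10:85185005-85185304 and that of Per1, 1 of 2 in the table, on the plus strand at chr11:69098699-69098998, both in GRCm38.p6 from RefSeq.
Cry1: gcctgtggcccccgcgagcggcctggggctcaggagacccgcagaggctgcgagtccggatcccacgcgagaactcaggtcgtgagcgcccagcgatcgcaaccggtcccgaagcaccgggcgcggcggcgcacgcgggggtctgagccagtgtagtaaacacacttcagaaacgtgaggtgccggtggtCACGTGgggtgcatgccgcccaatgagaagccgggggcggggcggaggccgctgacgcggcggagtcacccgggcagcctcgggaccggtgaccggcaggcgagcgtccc
Per1: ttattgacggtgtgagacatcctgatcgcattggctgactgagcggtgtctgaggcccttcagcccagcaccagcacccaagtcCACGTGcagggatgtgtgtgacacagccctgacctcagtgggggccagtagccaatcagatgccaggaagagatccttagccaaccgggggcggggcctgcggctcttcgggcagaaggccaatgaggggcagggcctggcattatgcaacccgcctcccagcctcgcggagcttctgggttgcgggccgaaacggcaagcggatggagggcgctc
The E-box letters start 60 bases before the transcript start in Cry1 and 166 bases before it in Per1. CACGTG reads the same on both strands and was in 9.91% of the promoters of measured genes and in 7.15% of all. It was in 2 of the 21 promoters searched. TGACGTCA (the cAMP response element, in 3.13% of promoters of measured genes) and TTATGTAA (the D-box, searched on both strands, in 0.509%) were in none of the 21. No motif overlapped another in the 3 promoters printed.

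Genes that answer to glucocorticoid hormone changed in 4 of 21, 3 higher and 1 lower, beside 4.21% of all genes called (2.5% higher and 1.71% lower). Under equal sums 1 gene of the list was higher and 1 lower. Tsc22d3, which encodes the anti-inflammatory protein GILZ (chrX:140539528-140600659), was at 10.25 to 11.09 (median 10.62) at ZT14 and at 9.92 to 10.50 (median 10.26) at ZT10. The classes separated further: high-class libraries were at 10.60 to 11.09 at ZT14, against 10.08 to 10.50 at ZT10, and low-class libraries at 10.25 to 10.47, against 9.92 to 10.09. Within each class the times did not overlap. Tsc22d3 rose 1.37-fold (0.46 ± 0.06, adjusted p = 0.000249). Zbtb16, a transcriptional repressor, rose 1.55-fold (adjusted p = 0.0322) and Pdk4, a kinase that inhibits pyruvate dehydrogenase, 1.24-fold (0.0239). Those 2 calls were lost without M42 at ZT14 (0.061) and without M38 at ZT10 (0.051). Gpd1, the cytosolic glycerol-3-phosphate dehydrogenase, was 1.19-fold lower (adjusted p = 0.0106). Fkbp5 (0.10) and Sgk1 (0.18), other widely used targets, had adjusted p values of 0.43 and 0.49, and the receptor gene Nr3c1 differed by 0.05 (0.50).

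Genes of neuronal identity and transmission gave few calls, all of small size, beside 4.21% of all genes called (1.71% lower). Called were 13.3% of medium spiny neuron and 16.7% of indirect-pathway genes, all lower, 5% of glutamate receptor genes and 2.5% of channel genes. Of 15 medium spiny neuron genes 2 fell: Rgs9, a striatal regulator of G protein signalling, was at 13.25 to 13.86 (median 13.47) at ZT14 and at 13.50 to 14.18 (median 13.72) at ZT10, 1.22-fold lower (-0.28 ± 0.05, adjusted p = 0.00393). Adcy5, the main striatal adenylyl cyclase, was 1.15-fold lower (-0.20 ± 0.06, adjusted p = 0.0454). Adora2a, the adenosine receptor of the indirect pathway, was 1.14-fold lower (adjusted p = 0.0401) and was the only 1 of 6 indirect-pathway genes to pass. Grm5 was 1.10-fold lower (0.0371), alone among 20 glutamate receptor genes, and Kcnh5, a potassium channel, was 1.17-fold higher (0.0137), alone among 40 channel genes. The calls of Adcy5 (0.057) and Adora2a (0.051) were lost without F25 and F18, that of Adcy5 also without M38 (0.086), that of Adora2a without M24 (0.081) and that of Grm5 without M18 (0.07).

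None of 7 direct-pathway genes, 7 interneuron markers, 14 GABA receptor genes or 12 genes of dopamine and opioid signalling was called. Drd1 differed by 0.10 (adjusted p = 0.35), Drd2 by -0.05 (0.71), Penk by -0.14 (0.14) and Pdyn by -0.08 (0.75). Nor was any of 80 ribosomal protein genes, 79 nuclear oxidative phosphorylation genes, 35 proteasome genes or 13 mitochondrial mRNAs, whose medians were 0.04, -0.01, 0.00 and 0.19. In cholesterol synthesis, Lss, a late enzyme of the pathway, was 1.17-fold lower (adjusted p = 0.0293), a call lost without M38 (0.061).

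Markers of other cells gave few calls, each of a single gene or a pair, beside 4.21% of all genes called. Called were 9.09% of astrocyte, 8.33% of oligodendrocyte, 12.5% of endothelial and mural and 14.3% of striatal position markers, and 0% of microglial and red blood cell markers. Fgfr3 rose among 11 astrocyte markers (1.17-fold, adjusted p = 0.0119), and Opalin fell among 12 oligodendrocyte markers (1.36-fold lower, 0.0173). Pecam1 and Tek fell among 16 endothelial and mural markers (1.22-fold and 1.17-fold lower), and Zcchc12 among 7 markers of position in the striatum (1.15-fold lower). Pecam1 was lost without M38 (0.061), Tek without M37 (0.083) and Zcchc12 without F44 (0.074) or without both F25 and F18 (0.059). Microglial markers summed to between 11744 and 16772 normalised counts at ZT14 and to between 12247 and 21555 at ZT10, and red blood cell genes to between 994.3 and 5902 at ZT14 and to between 793.9 and 3745 at ZT10. 12 of 13 microglial markers had a negative difference (median -0.11) and all 5 red blood cell genes a positive one (median 0.52), with none called. The 3 measured choroid plexus and ependymal markers summed to between 68.2 and 22572 at ZT14 and to between 82.4 and 58570 at ZT10. The part of blood or ventricular tissue in the results was not tested.

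Outside the lists, the largest fall was that of Rasl11b, a small GTPase of the RAS-like family (chr5:74195286-74199481). It was at 7.38 to 9.15 (median 7.86) at ZT14 and at 8.58 to 9.19 (median 9.08) at ZT10. F25 was the highest ZT14 library by far, and the other 10 lay below all 11 ZT10 libraries. Rasl11b was 1.92-fold lower (-0.94 ± 0.12, adjusted p = 0.000204), with a log2 difference of -1.03 without F25 and F18. Plekhg5, an exchange factor for small GTPases, was 1.41-fold lower (adjusted p = 0.000204), Ccno, a cyclin of multiciliated cells, 1.69-fold (0.00345), Cln6, an ER membrane protein, 1.52-fold (0.0018), Nexn, an actin-binding protein, 1.55-fold (0.00517) and Ccsap, a centriole-associated protein, 1.23-fold (0.000204). Crocc, of the ciliary rootlet, was 1.45-fold lower (0.00875). Fbn1 (1.73-fold lower, 0.0435), Ccdc88b (1.57-fold), Zfp575 (1.47-fold) and Xrcc3 (1.42-fold) lost their calls in at least 1 fit without a single library, with adjusted p values up to 0.081 (without M23), 0.052 (M40), 0.098 (M38) and 0.074 (M38).

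Rises outside the lists included P4ha1, a collagen prolyl hydroxylase subunit, at 10.99 to 11.95 (median 11.67) at ZT14 and at 10.65 to 11.34 (median 11.08) at ZT10. It rose 1.51-fold (0.59 ± 0.08, adjusted p = 0.000204). Tiparp, an ADP-ribosyltransferase induced by the aryl hydrocarbon receptor, lay between 10.00 and 11.29 at ZT14 and between 9.63 and 10.32 at ZT10, 1.78-fold higher (0.84 ± 0.12, adjusted p = 0.000208). Rbm12b1, an RNA-binding protein, rose 1.94-fold, Shisa2, of a family known in Xenopus for holding growth factor receptors in the ER, 1.72-fold, Phlda1 1.44-fold and Peli1, a ubiquitin ligase, 1.41-fold, with adjusted p values from 0.000204 to 0.0011. Hist1h2ai, a histone gene with near-identical copies whose reads may be split among them, rose 1.73-fold, a call lost without M24 (0.051). Of the 75 called genes named by the rule given under processing, 56 were called in each of the 22 fits that left out 1 library, 69 without F25 and F18, and 36 without the class term.

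Fitted alone, the 6 males of each time gave 564 called genes (4.66%), 337 higher (2.78%) and 227 lower (1.88%), and the 5 females of each time gave none, with 1187 genes at an unadjusted p below 0.05 against 2511 in males. Immediate early genes were called higher in 21 of 31 in males alone, with a median log2 difference of 0.83, against 0 of 31 and 0.14 in females alone. The difference between the sexes was itself tested over all genes and none passed (0 of 12101, 0%, limma), with a smallest adjusted p of 0.083 and 1621 genes at an unadjusted p below 0.05. The 3 genes nearest to passing were Btg2 (1.39 in males, -0.05 in females), Etfrf1 (-0.47 and 0.13), a mitochondrial regulator of the electron transfer flavoprotein, and Pfkfb3 (0.43 and -0.03), an activator of glycolysis, and all missed the threshold. With all 70 DMS libraries in the fit, 8 genes passed.

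The genes called in males had smaller differences in females, mostly of the same sign, and since the males chose them their size in males is a description. Of the 564 genes called in males alone, 404 (71.6%) had the same sign in females, against 52.6% of all genes, and their median size was 0.38 in males and 0.09 in females. In females without F25 and F18, 4 animals at each time, 410 of the 564 (72.7%, against 52.3% of all genes) had the same sign and the median was 0.11. Those 4 and 4 females alone gave 4 called genes (0.0331%), all among the 510. Nr4a1 differed by 2.25 in males and 1.22 in females, Per2 by 0.98 and 0.44, Srsf5 by -0.77 and -0.34, and Rasl11b by -1.13 and -0.72. The gap was wider for Egr2 (2.40 in males and 0.44 in females) and Nr4a3 (2.37 and 0.40). Tsc22d3 ran the other way, at 0.36 in males and 0.57 in females.

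Some genes of dividing cells and of ventricular tissue had a positive difference in males and a negative one in females, but no difference between the sexes passed. Among 12 genes of cell division and neural progenitors, a list chosen after the values were seen, the median log2 difference was 1.20 in males and -0.62 in females. The adjusted p of the difference between the sexes ran from 0.122 (Ccna2) to 0.34 (Dlx1), and none of the 12 was called in females alone or in both sexes together. Their summed normalised counts were between 5432 and 9869 in males and between 1351 and 8954 in females at ZT14, against between 1460 and 8249 in males and between 3530 and 6834 in females at ZT10. Top2a, a topoisomerase of dividing cells, differed by 1.56 in males and -1.27 in females. The 3 choroid plexus and ependymal markers had medians of 1.75 in males and -0.70 in females. The part of this tissue in the male calls was not tested.

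**Figure D3:**
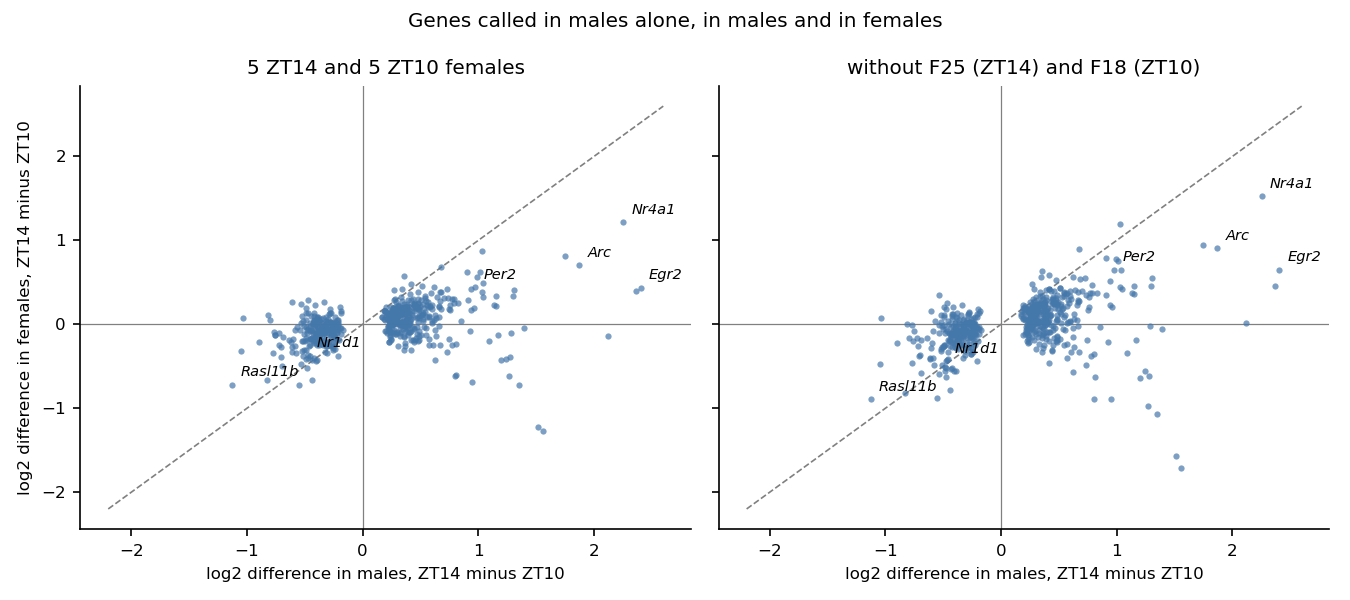
Log2 difference, ZT14 minus ZT10, of the 564 genes called in males alone, in males (x) and in females (y), with 5 females at each time on the left and 4 on the right, after leaving out F25 and F18; the dashed line marks equal change. In females 404 of the 564 points on the left and 410 on the right have the sign they have in males, and a group with males above 1 and females below 0 includes Top2a (1.56 and -1.27).

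The library classes were also compared. In the high class alone, 7 libraries of each time, 253 genes were called (2.09%), 182 higher and 71 lower. In the low class, with 4 of each time, none was (0%), with 1219 genes at an unadjusted p below 0.05. Of the 253, 225 (88.9%) had the same sign in the low class, against 59.2% of all genes, and their median size was 0.38 in the high class and 0.18 in the low class. No gene passed the test of the difference between classes (0%, 735 at an unadjusted p below 0.05). Nearest to passing were Rnpc3 (0.74 in the high class, -0.16 in the low class), a protein of the minor spliceosome, Gm37895 (1.15 and -0.20) and Clk1 (1.04 and 0.05), each with an adjusted p of 0.616.

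The opposite transition gave almost no call. Between ZT2 and ZT22, 12 libraries each and none shared with the lights-off comparison, 1 gene of 12101 passed (0.00826%): Nr1d1, higher at ZT2 by 0.56 ± 0.09 (adjusted p = 0.00107). In the same fit of 4 times, lights off gave 847 calls (7%). The rRNA share had a median of 24.5% at ZT2 and 23.8% at ZT22, against 39.8% at ZT14 and 35.9% at ZT10. Most lights-on libraries were thus low-class, the class that gave no lights-off call on its own. The part of this imbalance in the contrast of the 2 transitions was not tested. The difference between lights-off and lights-on changes passed for 293 genes (2.42%), 161 with a higher value at lights off and 132 with a lower one. Without F25 373 genes passed, without F25 and F18 390, and without the class term 68. Leaving out any 1 of the 46 libraries gave between 203 (without M38) and 398.

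Nr1d1 led these with -0.43 at lights off and 0.56 at lights on (difference -0.99, adjusted p = 8.63e-06). Tsc22d3 changed by 0.46 and -0.22 (0.67, 1.39e-05), Gpt2, a mitochondrial alanine aminotransferase, by 0.37 and -0.11 (0.48, 5.85e-05), and the serotonin receptor gene Htr1b by 0.55 and -0.14 (0.69, 0.000128). Zfp580, a zinc-finger gene, changed by -0.43 and 0.26 (-0.69, 0.000128) and Plekhg5 by -0.50 and 0.04 (-0.54, 0.000128). Apart from that of Nr1d1, the lights-on values missed the threshold on their own. Htr1b was at 11.03 to 11.80 (median 11.54) at ZT14 and at 10.66 to 11.23 (median 10.97) at ZT10.

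Over the whole day, relative to ZT10, the fitted levels had different courses, given here as a description from all 70 DMS libraries. Nr4a1 was at 0.72 at ZT2, 0.49 at ZT6, 1.78 at ZT14, 1.01 at ZT18 and 1.05 at ZT22, so that ZT10 was its lowest and ZT14 its highest time. Per2 was at -0.06, -0.60, 0.73, 0.87 and -0.17 at the same times, highest at ZT18. Nr1d1 was highest at ZT10 and lay at -0.83, -0.29, -0.43, -0.93 and -1.38. Hspa5, Chordc1 and Tra2a were highest at ZT18, and Tsc22d3 at ZT14. Srsf5 was at its ZT10 level at ZT6 and below it at all other times, lowest at ZT18 (-0.78).

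**Figure D4:**
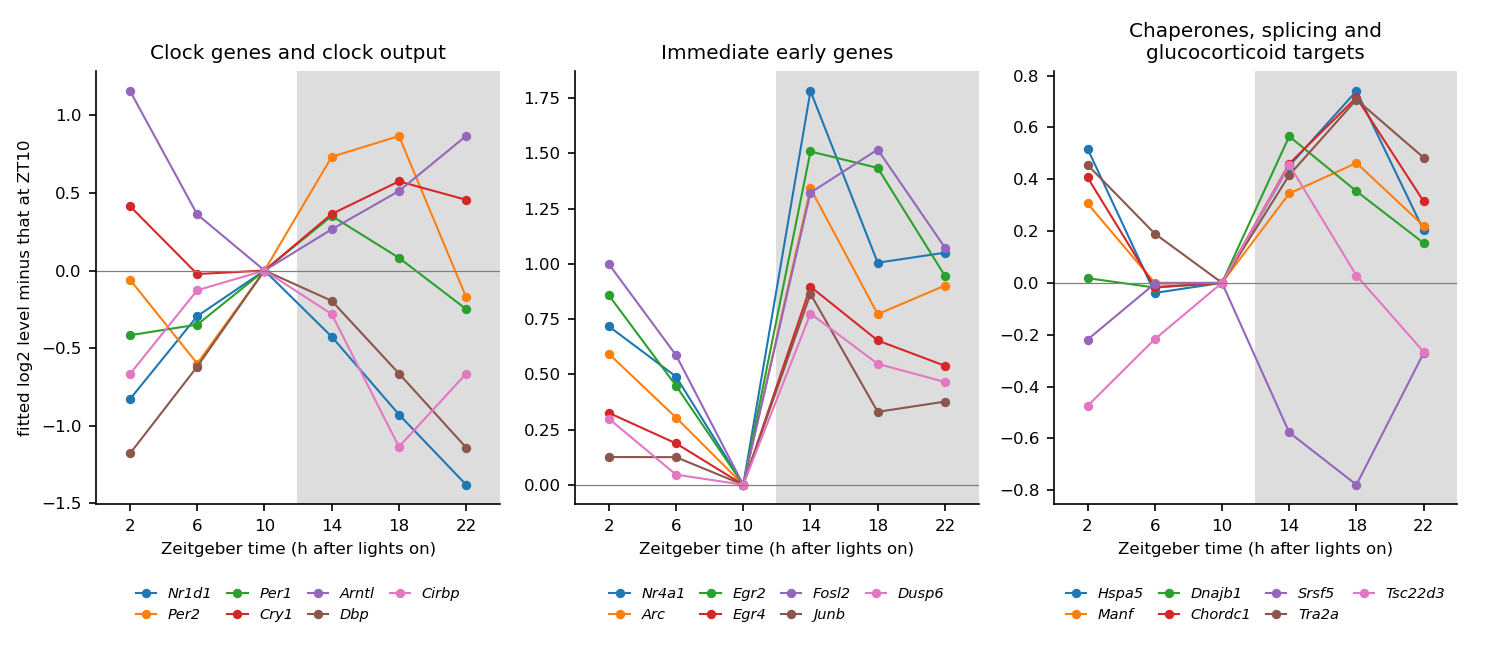
Fitted log2 level of 21 genes at 6 times of day in DMS, minus the level at ZT10, from all 70 DMS libraries with sex and class terms; grey marks the dark phase and all lines pass 0 at ZT10 by construction. All 7 immediate early genes are lowest at ZT10 (Nr4a1 1.78 at ZT14), while Nr1d1 declines from ZT10 through the dark to -1.38 at ZT22.

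The neighbouring DLS, which serves habitual action, was compared by its change alone, since the tables were normalised separately. Its 12 libraries of ZT14 and 11 of ZT10 shared 9 animals at each time with the DMS groups. Among 11365 genes in both tables, 474 were called in DMS (4.17%) and 986 in DLS (8.68%), in 1 fit with the animal as a replicate block. Called in both were 314, 66.2% of the DMS list and 31.8% of the DLS list, all with the same sign. No gene passed the test of the difference between regions (0%, limma), and 345 had an unadjusted p below 0.05. Without the replicate block 0 passed and 269 had an unadjusted p below 0.05.

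Since the regions share animals and the genes were chosen as called in DMS, agreement in sign is a description. Over all 11365 genes 73.6% had the same sign in both regions. Of the 75 called in DMS 70 were in both tables, all with the same sign, and 53 were called in DLS. In the fit of both regions, Nr4a1 rose by 1.75 in DMS and 1.70 in DLS, Arc by 1.32 and 1.30, Per2 by 0.74 and 0.95, and Cry1 by 0.37 and 0.72. Rasl11b fell to a log2 difference of -0.94 in DMS and -1.09 in DLS. The genes nearest to differing were Slc16a7, a monocarboxylate transporter (0.17 in DMS, -0.13 in DLS), Tmem38b, an ER cation channel (-0.22 and 0.22), and Top3a, a topoisomerase (0.15 and -0.53), all with adjusted p values of 1.00.

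**Figure D5:**
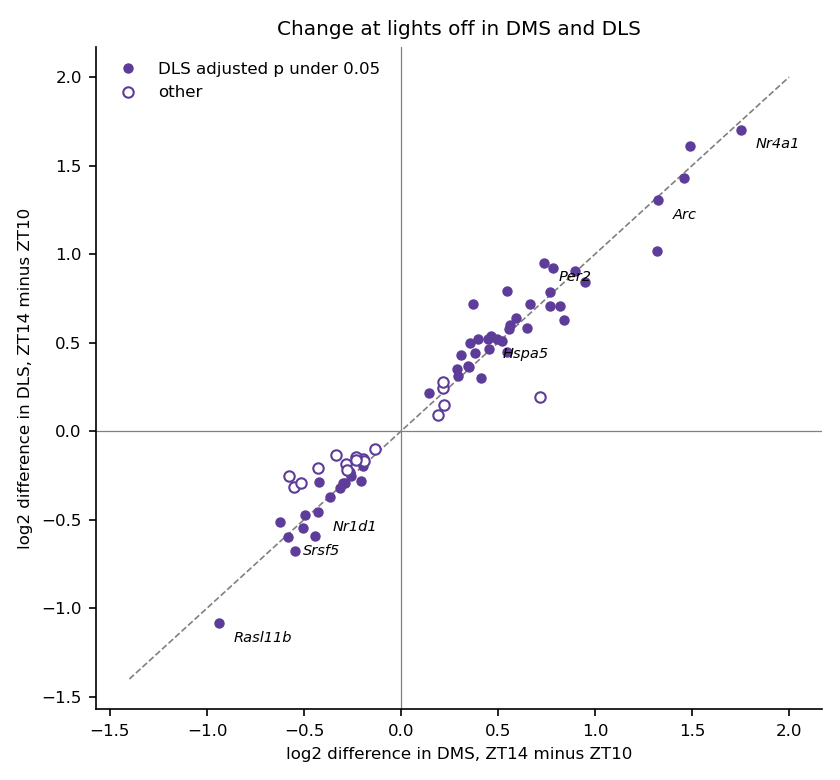
Log2 difference, ZT14 minus ZT10, in DMS (x) and in DLS (y) for the 70 named genes called in DMS and present in both tables, from 1 fit of both regions; filled points have an adjusted p below 0.05 in DLS and the dashed line marks equal change. All 70 points have the same sign on both axes, and 53 are filled.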

How the data were processed

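Total RNA of each punch was sequenced as 75 bp paired reads with a stranded kit, per the labels' protocols. Per the submitters' processing notes, the tools were FastQC, Trimmomatic, HISAT2 (2.1.0) and HTSeq (0.10.0). The authors deposited log2 values of DESeq2-normalised counts, filtered and normalised separately for each region, per the series' design text. The genes matched the GENCODE annotation of GRCm38 for 12073 of 12101 identifiers. Whole reads were recovered for 100% of values (tolerance 0.01), with a pseudocount of 1. A library was high-class where mt-Rnr1 and mt-Rnr2 held more than 32.5% of its summed normalised counts. Whether counting used strand is not given in the sources used here, so overlapping and antisense genes cannot be told apart.

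The members and gene lists were chosen with earlier results of these data known. Every DMS gene was tested with limma (3.58.1, R 4.3.3, variance trend), with sex and class as terms and Benjamini-Hochberg adjustment over all genes. Differences between sexes, classes, regions and lights off against lights on were interaction terms. Between DMS and DLS the animal was the replicate block, since the same animals gave both punches (within-animal correlation 0.117). The difference in rRNA share was tested by 100000 permutations. The fit was tested on simulated data with 200 changed genes. Genes named by rule were, among called genes with a mean of at least 6, the 12 largest changes and 8 smallest p in each direction, all clock, clock output and cold-inducible genes, up to 5 per other list, and the leading genes of each interaction. Other list members, the 12 division and progenitor genes and the serotonin receptors were named after their values were seen. Alternatives are given in the closing section, and those chosen after seeing the data left out F25, F18, M24 or M25, split sex by class, or left out single libraries in the comparison of lights off and on. Some genes are not reported here.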

Additional observations from a re-analysis of the deposited data

Results flagged for a closer look

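Single libraries stood far from the others of their sex and time, by Dixon's test for a single outlying value, in 11 of 136 groups over 34 genes, and chance gives about 1 in 20. In 8 of them the library was F25 or F18. F25 at ZT14 had Chordc1 at 9.95 (the other 4 females 10.36 to 10.46), Rbm12b1 at 6.66 (7.34 to 7.53), Hnrnpdl at 11.9 (11.5 to 11.6) and Plekhg5 at 10.2 (9.47 to 9.66). All 4 values lay toward the ZT10 level. F18 at ZT10 had Egr2 at 9.29 (the other 4 females 7.78 to 7.98), Rsrp1 at 11.3 (10.3 to 10.6), Shisa2 at 8.72 (8.12 to 8.29) and Fam160b2 at 10.8 (10.1 to 10.2). The first 3 lay toward the ZT14 level. F25 and F18 were also the only low-class females, so the class cannot be told apart from the animal. The other 3 libraries were M21 at ZT14 with Rsrp1 at 11.6 (the other 5 males 11.4 to 11.5), M37 at ZT10 with Rasl11b at 8.60 (9.08 to 9.16) and F43 at ZT14 with Zfp575 at 5.77 (6.65 to 7.01).

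The change at lights off differed from that at lights on, by the test of the difference over all genes, for 6 genes named by smallest p. The differences were -0.99 for Nr1d1, 0.67 for Tsc22d3, 0.48 for Gpt2, 0.69 for Htr1b, -0.69 for Zfp580 and -0.54 for Plekhg5.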

How the results depend on the processing

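With no class term 107 genes were called (80 higher, 27 lower), with all 70 DMS libraries 806 (376 lower), in the high class alone 253 (182 and 71), in the low class alone 0, in females alone 0, with equal sums over all genes 172 (31 higher), without M24 and M25 282 (174 and 108), in high-class females 4 (3 and 1), in high-class males 266 (197 and 69) and in low-class males 29 (24 and 5). The single-class and single-sex fits hold fewer samples, and the cause of the other shifts was not tested. Leaving out 1 library gave 311 (without M38) to 613 (without F25) calls, 202 to 367 higher and 109 to 246 lower. The other settings (share or animal number as covariate, sums outside rRNA, voom on recovered reads, no trend, a pseudocount of 5, a mean of at least 6) gave between 426 and 675.

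The difference between sexes had 8 genes with all 70 libraries and 0 to 1 without 1 library, and that between lights off and on had 68 without the class term and 203 to 398 without 1 library. Without the replicate block 0 genes differed between DMS and DLS, as with it. Signs reversed in females alone and in high-class females for Btg2 (-0.045 and -0.052) and Pfkfb3 (-0.029 and -0.012). Called named genes kept sign and call in 2416 refits, lost the call in 655 and reversed in 4. The calls of Adora2a (adjusted p = 0.051), Adcy5 (0.057), Zcchc12 (0.059), Xrcc3 (0.065), Zfp575 (0.054) and Fbn1 (0.08) were lost without F25 and F18. The number of libraries limits the precision in females (5 at each time) and in the low class (4 at each time).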

Other observations

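Serotonin receptors, a set chosen after the values were seen, had 2 of 7 measured genes called higher at ZT14 and none called lower. Their median log2 difference was -0.18, and 2.5% of all genes were called higher. Htr1b, a presynaptic inhibitory receptor of striatal terminals, and Htr2a, an excitatory receptor, both differed by 0.55, with adjusted p values of 0.000327 and 0.031. Htr2c differed by -0.19 (0.20), Htr1d by -0.23 (0.21), Htr5a by -0.31 (0.29), Htr4 by -0.18 (0.57) and Htr6 by -0.16 (0.66), none of which passed.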
